A study of Mus musculus with 8 samples.

Results

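Meox1, Meox2, Uncx, Emx1 and Emx2 encode transcription factors that bind DNA through a homeodomain. The probes were those whose RefSeq accession belongs to 1 of these 5 genes, which gave 1 probe per gene, and thus 5 of the 20887 genes named on the array. All 5 were among the 13985 genes bright enough to be tested, in the sense that the red channel was well above background on at least 4 of the 8 arrays. The genes were picked with their KO and WT levels already known, so their levels and differences are given as a description, with no test.

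The kidneys came from C57BL/6 mouse embryos at embryonic day 16.5. In the KO kidneys (4 pairs) Dot1, taken here as the histone H3 methyltransferase gene Dot1l, had been conditionally knocked out in Six2-positive nephron progenitor cells (NPC). The WT kidneys (4 pairs) were wildtype, and the design text calls the samples of each group biological replicates. Each was measured as a whole kidney pair, which also holds the ureteric bud, stroma, vessels and blood-borne cells, none of them Six2 progenitors, and the source of the Cre is not given in the sources used here.

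Meox1 and Meox2 are paralogs that act together in somites, where Meox1 helps to pattern the sclerotome and Meox2 takes part in limb muscle development and in the vascular endothelium. Uncx keeps the caudal part of each somite distinct and is needed for pedicles and proximal ribs. Emx1 and Emx2 are the paralogs of the fly gene empty spiracles and pattern the cerebral cortex, and Emx2 is also required in the mouse for the ureteric bud to function and for the urogenital tract to form. In the kidney, Meox1, Meox2 and Uncx have been used as genes of the early cap mesenchyme, the sheet of progenitors that surrounds the tips of the ureteric bud.

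On every array the sample was labelled with Cy5 (red) and RNA of the wildtype pair 1, called WT1 here and not to be read as the gene Wt1, with Cy3 (green). A value below is the log2 ratio of red over green after background correction and loess. The array of WT1 against itself lies near 0 by construction. The arrays of WT1 and KO1 stood apart: their negative control spots had median red signals of 478.25 on KO1 and 1361 on WT1, against 58 to 61 on the others. Y-linked Ddx3y was high in all 4 KO pairs and WT2 (log2 ratio 2.31 to 3.19 in KO and 3.29 in WT2) and near 0 in the other 3 WT pairs (-0.11 to 0.08). All arrays were on 1 slide, and each slide row held 1 group, so row and group cannot be told apart. The probe of Dot1l gave no call (0.03 ± 0.08, limma adjusted p = 0.924), and whether it lies in a deleted exon is not known from the files.

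Meox2 had the largest difference of the 5 genes. Its log2 ratio was -1.19, -1.62, -2.24 and -1.94 in KO1 to KO4, against -0.11, 0.29, 0.07 and 0.48 in WT1 to WT4. The lowest WT and the highest KO array lay 1.08 apart, and KO1 was the highest of the KO arrays. The difference was -1.93 ± 0.20 (SE, n = 4 each, 95% interval -2.36 to -1.51), or 3.82-fold lower in KO kidneys, and it ranked in place 2 among the decreases of all 13985 genes. In the untransformed signals of KO2, KO3 and KO4 the red spot read 455, 196 and 439 scanner units, against 1907, 1616 and 3024 in WT2, WT3 and WT4. The green spot, which holds the same RNA each time, read 554.5, 587 and 624 on those KO arrays and 739, 734 and 658.5 on those WT arrays.

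Meox1, the paralog, was lower in KO kidneys by a smaller amount. It had log2 ratios of -0.20, -0.48, -0.52 and -0.31 in KO1 to KO4, and of -0.03, -0.12, 0.03 and 0.08 in WT1 to WT4. The groups did not overlap, but only 0.09 separated KO1 from WT2. The difference was -0.37 ± 0.09 (95% interval -0.57 to -0.16), or 1.29-fold lower in KO kidneys. Meox1 was also the dimmest of the 5 probes, with red signals of 180, 140 and 239 in KO2 to KO4 against 256.5, 326 and 479.5 in WT2 to WT4, and it was not well above background on KO1 or WT1. The size of its difference depended on how background was treated. The scanner software's own background-subtracted ratio gave -1.14, -0.97, -1.10 and -0.72 in KO1 to KO4 against -0.15, -0.32, -0.01 and -0.04 in WT1 to WT4, a difference of -0.85.

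Uncx had log2 ratios of -0.73, -0.87, -1.01 and -1.07 in KO1 to KO4, against -0.05, 0.36, 0.04 and 0.39 in WT1 to WT4. The KO arrays lay close together (SD 0.15), whereas the WT arrays fell into a lower pair, WT1 and WT3, and a higher pair, WT2 and WT4. The same 2 WT arrays were the higher ones for Meox2. The difference of Uncx was -1.11 ± 0.12 (95% interval -1.36 to -0.85), or 2.15-fold lower in KO kidneys, and 0.69 separated the groups. Its probe was bright, with red signals of 1876, 1062 and 1887.5 in KO2 to KO4 and of 3980, 3179.5 and 6001 in WT2 to WT4.

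Emx1 had log2 ratios of -0.75, -1.03, -0.77 and -1.29 in KO1 to KO4, and of 0.00, 0.03, -0.02 and -0.18 in WT1 to WT4. The difference was -0.92 ± 0.12 (95% interval -1.18 to -0.66), or 1.89-fold lower in KO kidneys, with 0.57 between the groups. The green channel, which holds the same RNA each time, was also compared after quantile normalization, which gives every array the same distribution of signals. So normalized, and with KO1 and WT1 left out, green was higher on the KO arrays by 0.17 (log2) at Emx1 and 0.12 at Uncx. Untransformed, the Emx1 green spot read 352.5, 386 and 398 on KO2 to KO4, against 417.5, 399 and 358 on WT2 to WT4. That of Uncx read 1265, 1316 and 1336.5 on KO2 to KO4, against 1470, 1471.5 and 1344 on WT2 to WT4. The normalized green difference was -0.14 at Meox1, 0.00 at Meox2 and -0.04 at Emx2. The middle 90% of all genes had a green difference between -0.13 and 0.11. With the red channel taken alone and normalized in the same way, without KO1 and WT1, Emx1 still differed by -0.72 and Uncx by -1.05.

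The 95% interval of the difference of Emx2 held 0. It had log2 ratios of -0.06, -0.17, -0.21 and 0.08 in KO1 to KO4, against -0.01, -0.08, 0.17 and 0.00 in WT1 to WT4, and the groups overlapped. The difference was -0.11 ± 0.09, with an interval of -0.31 to 0.10. Its red signals were 508.5, 382 and 741 in KO2 to KO4, against 533, 755.5 and 910 in WT2 to WT4, and WT1 was the only array on which it was not well above background.

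**Figure D1:**
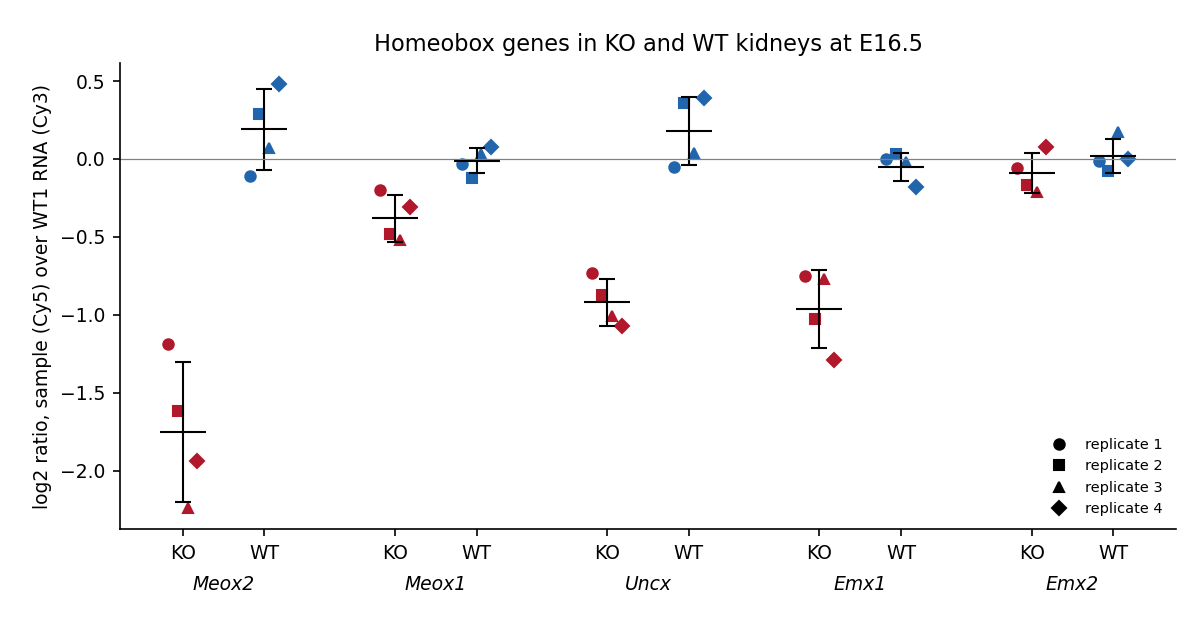
Log2 ratio of sample over WT1 RNA (y axis) for each of the 5 genes in KO (red) and WT (blue) kidneys, with marker shapes for the replicate number and black bars for the mean ± SD of 4 arrays. Meox2, Uncx and Emx1 show a wide space between the groups, Meox1 one of 0.09, and Emx2 an overlap.

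**Figure D2:**
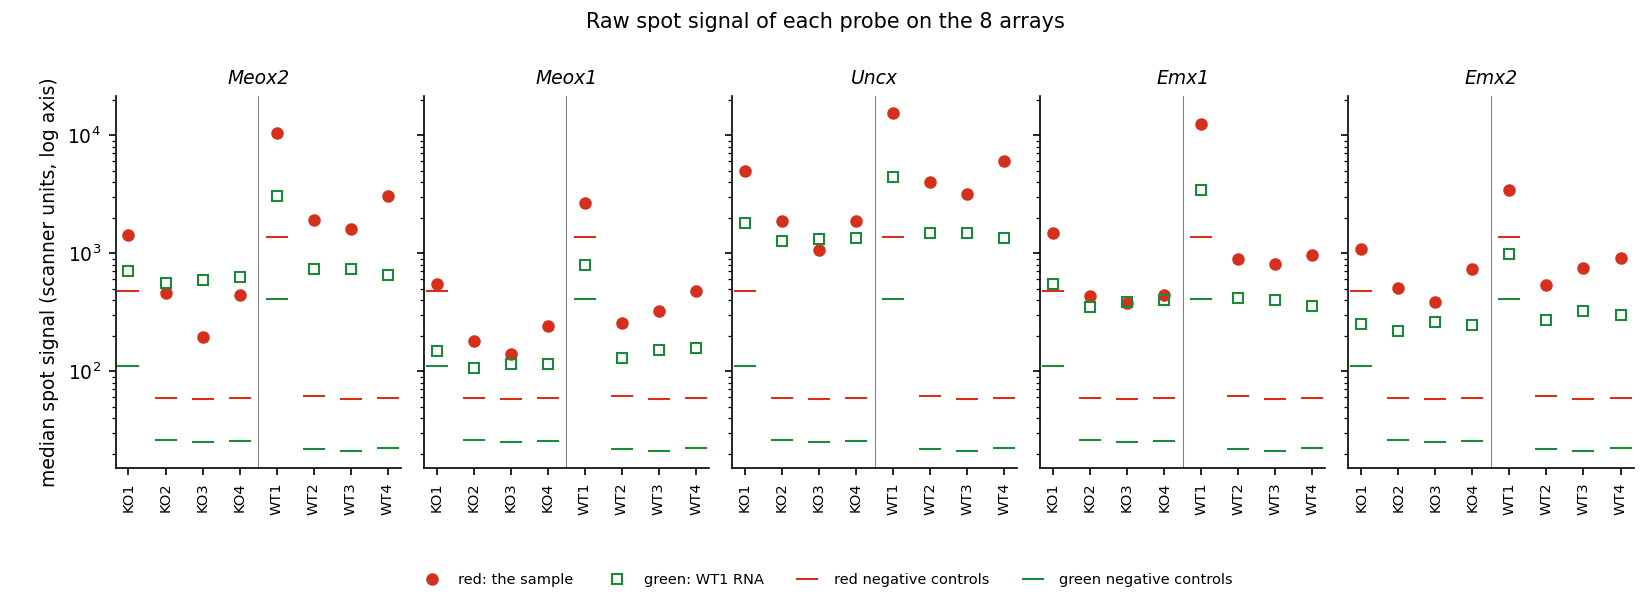
Median red and green spot signal (log y axis, scanner units) of each probe on the 4 KO and then the 4 WT arrays, with short lines for the median negative control spot of that array and colour. The green squares differ little among the 6 arrays other than KO1 and WT1, while the red points of Meox2, Uncx and Emx1 sit lower on KO2 to KO4 than on WT2 to WT4.

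By size, the differences ran from Meox2 through Uncx, Emx1 and Meox1 to Emx2. The 95% intervals of the neighbours Uncx and Emx1 overlapped, as did those of Meox1 and Emx2. Each interval describes how precisely 1 difference was estimated. Their overlap is no test and does not take into account that the genes were measured on the same arrays. KO and WT arrays did not overlap for 4 of the 5 genes, where 9.27% of all genes did not overlap and 2.46% did so with KO lower. These shares are given beside the count because the genes were chosen on the same contrast, and nothing is read from it. With KO1 and WT1 left out the differences were -2.22 for Meox2, -1.25 for Uncx, -0.97 for Emx1, -0.43 for Meox1 and -0.13 for Emx2. Against WT2 alone, the only male WT kidney pair, the 4 KO pairs averaged -2.04 for Meox2, -1.28 for Uncx, -0.99 for Emx1, -0.26 for Meox1 and -0.01 for Emx2. A whole kidney does not show whether fewer cells carried these transcripts or each cell held less of them, and the 2 cannot be told apart.

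Within each array, the paralogs of a pair were set against each other, which cancels what an array does equally to both probes. Meox2 minus Meox1 was -0.99, -1.14, -1.72 and -1.64 in KO1 to KO4, against -0.08, 0.41, 0.04 and 0.41 in WT1 to WT4. All KO arrays thus lay below all WT arrays, and the difference was -1.57 ± 0.22 (95% interval -2.11 to -1.02). Emx2 minus Emx1 ran the opposite way, at 0.69, 0.87, 0.56 and 1.37 in KO1 to KO4 against -0.01, -0.11, 0.19 and 0.19 in WT1 to WT4. This was a difference of 0.81 ± 0.19 (95% interval 0.33 to 1.28), again without overlap. In both families the difference between KO and WT was thus larger for 1 paralog than for the other. The smaller one was in each case at the probe that was dimmer in green, Meox1 or Emx2. In red Meox1 was also dimmer than Meox2 on every array. Emx2, however, was brighter in red than Emx1 on KO2 to KO4 (508.5, 382 and 741 against 430.5, 377 and 441). Meox1 was not well above background on KO1 or WT1, nor Emx2 on WT1. With the software's ratio, the difference was -1.49 for Meox2 minus Meox1 and 0.98 for Emx2 minus Emx1. With the red channel alone these were -1.35 (SE 0.54) and 1.14 (SE 1.08). Without KO1 and WT1 the red channel gave -1.42 (SE 0.23) and 0.53 (SE 0.25). No level of a paralog can be set against the other, since each probe has its own brightness.

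**Figure D3:**
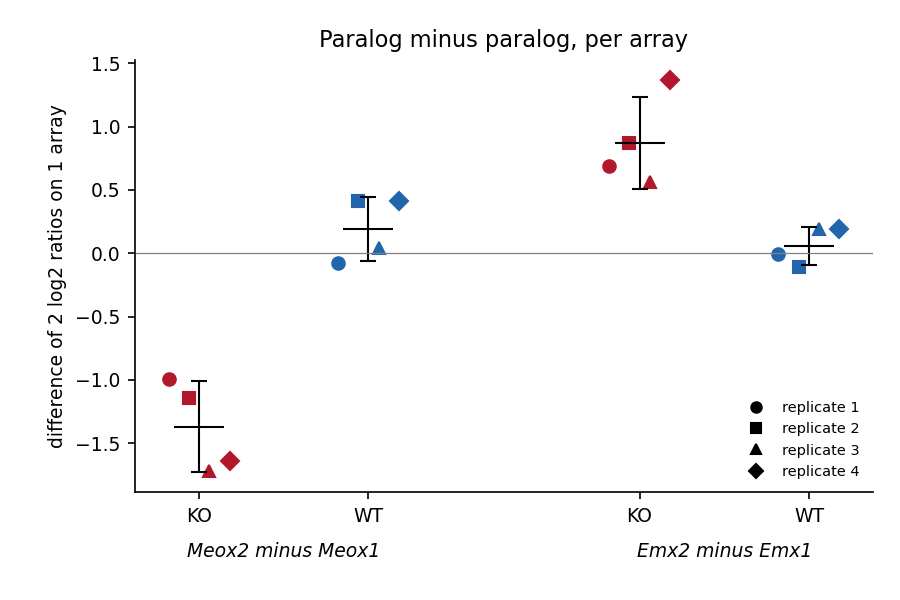
Difference of the log2 ratios of 2 paralogs on the same array (y axis) in KO (red) and WT (blue) kidneys, with marker shapes for the replicate number and black bars for the mean ± SD of 4 arrays. Meox2 minus Meox1 lies between -1.72 and -0.99 in KO and between -0.08 and 0.41 in WT, and Emx2 minus Emx1 between 0.56 and 1.37 in KO and between -0.11 and 0.19 in WT.

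The 250 bases before the annotated start of Meox2, Uncx, Emx1 and Emx2 are shown because the first 3 were all lower in KO kidneys and Emx2 overlapped. The sequences and positions are from RefSeq on GRCm38.p6, written 5′ to 3′ on the gene's strand, and all but Meox1 were found in that table. Capitals mark TAAT, the core that homeodomains bind, on either strand (ATTA on the other strand), so that TAATTA is an overlapping pair of cores.

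Meox2, chr12:37108290-37108539, plus strand: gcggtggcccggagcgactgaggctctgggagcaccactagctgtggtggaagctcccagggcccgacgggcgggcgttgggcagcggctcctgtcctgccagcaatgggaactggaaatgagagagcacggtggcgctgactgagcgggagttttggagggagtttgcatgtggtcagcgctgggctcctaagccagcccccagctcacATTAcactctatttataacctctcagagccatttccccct
Uncx, chr5:139543648-139543897, plus strand: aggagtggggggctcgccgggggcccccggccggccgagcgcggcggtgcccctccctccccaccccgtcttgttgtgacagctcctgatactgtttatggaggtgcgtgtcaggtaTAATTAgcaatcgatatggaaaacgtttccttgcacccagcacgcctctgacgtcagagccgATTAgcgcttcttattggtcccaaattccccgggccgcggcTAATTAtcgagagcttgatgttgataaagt
Emx1, chr6:85187681-85187930, plus strand: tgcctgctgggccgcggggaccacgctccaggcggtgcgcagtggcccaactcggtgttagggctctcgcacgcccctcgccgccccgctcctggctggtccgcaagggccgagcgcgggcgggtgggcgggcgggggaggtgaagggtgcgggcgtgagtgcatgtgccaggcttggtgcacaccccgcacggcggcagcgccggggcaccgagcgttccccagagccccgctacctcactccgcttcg
Emx2, chr19:59458440-59458689, plus strand: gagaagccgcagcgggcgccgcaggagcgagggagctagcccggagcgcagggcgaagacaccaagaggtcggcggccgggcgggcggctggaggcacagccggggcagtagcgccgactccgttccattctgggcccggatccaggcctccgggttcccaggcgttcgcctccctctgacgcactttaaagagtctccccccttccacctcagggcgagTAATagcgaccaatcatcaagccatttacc

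The 4 promoters were rich in G and C, at 62% in Meox2, 58.4% in Uncx, 75.6% in Emx1 and 67.2% in Emx2, where the median of 27025 promoters of this length was 52%. They held 12, 20, 30 and 24 CpG sites in that order of genes, against a median of 6. Uncx had TAATTA 133 and 30 bases before the start. TAATTA was present in 4.9% of all promoters, and at 2 or more places in 0.459%. Uncx also had TGATAC, a motif of the factor Six2, 164 bases before the start, as did 4.68% of all promoters somewhere in this window. Meox2 had a single TAAT 40 bases before the start and TATAAA, the TATA box, on the opposite strand 29 bases before it. Emx2 had a single TAAT 30 bases before the start. Emx1 had none. GGGCGG, the GC box, stood at 4 places in Emx1, at 2 in Emx2 and at 1 in Meox2, and an overlapping pair of matches is among those of Emx1 and makes up those of Emx2. TAAT was present in 55.3% of all promoters, TATAAA in 13% and GGGCGG in 32.9%. Each motif was searched on both strands, and a match describes the letters only.

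Other homeobox genes, without the Hox clusters and Six2 with its relatives, were set beside these. Of 139 such genes 53 were tested, and 3 were higher and 1 lower in KO kidneys (limma, adjusted p under 0.05 over all genes), which is 7.55% against 2.12% of all genes (1.57% higher, 0.543% lower). With the replicate number as a block 6 passed (4 higher, 2 lower), where 556 of all 13985 genes did. Their median difference was -0.01, against 0.03 over all genes. Lhx1, a LIM homeobox gene of the renal vesicle, fell: it was at -0.40, -0.45, -0.47 and -0.85 in KO1 to KO4 and at 0.13, 0.78, 0.23 and 0.12 in WT1 to WT4 (-0.86 ± 0.15, limma adjusted p = 0.0146). Zeb2, a zinc finger homeobox repressor expressed in mesenchyme, was higher by 0.57 ± 0.10 (limma adjusted p = 0.0124). The mean of all its kept probes gave 0.27 (limma adjusted p = 0.0989), and the red channel without KO1 and WT1 gave 0.27 (limma adjusted p = 0.342). Phox2a, a gene of autonomic neurons, was higher by 0.56 ± 0.12 (limma adjusted p = 0.0301), and Pou3f1, a POU gene of Schwann cells, by 0.50 ± 0.10 (limma adjusted p = 0.0251). Their sizes are uncertain, between 0.41 and 1.77 for Phox2a and between 0.39 and 1 for Pou3f1 over the alternatives. Phox2a was well above background on only 3 KO and 3 WT arrays. The 4 KO arrays did not overlap the 4 WT arrays for any of these 4 genes, where 9.27% of all genes did not overlap. The 4 were named because they passed on this same contrast, so nothing is read from it. Of 20 alternative settings, Lhx1 passed under 15, Zeb2 under 12, Phox2a under 8 and Pou3f1 under 6.

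In the ANTP class, to which Meox, Emx and the Hox genes belong, 12 other genes outside the Hox clusters were tested. Of these 0 passed in limma (2 at an unadjusted p under 0.05, which 14.5% of all genes reached). En2, a midbrain and hindbrain boundary gene, came closest at -0.48 (limma adjusted p = 0.114). Of the 6 tested genes of the PRD class, to which Uncx belongs, Phox2a passed. In the TALE class, which includes the Irx genes of the nephron, 18 genes were tested and 0 passed (4 at an unadjusted p under 0.05), with Irx4 at -0.42 (limma adjusted p = 0.0869) and Irx2 at -0.44 (limma adjusted p = 0.0903). Without KO4, where 83 of all 13985 genes passed, none of the 53 did, and Lhx1 was then at -0.75 (limma adjusted p = 0.0578). With sex as a term, Lhx1 was at -1.32. Since all KO pairs but only WT2 among the WT pairs were male, this term sets the KO mean against WT2 alone. Lhx1 stood apart on WT2, at 0.78 against 0.12 to 0.23 on the other WT arrays.

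**Figure D4:**
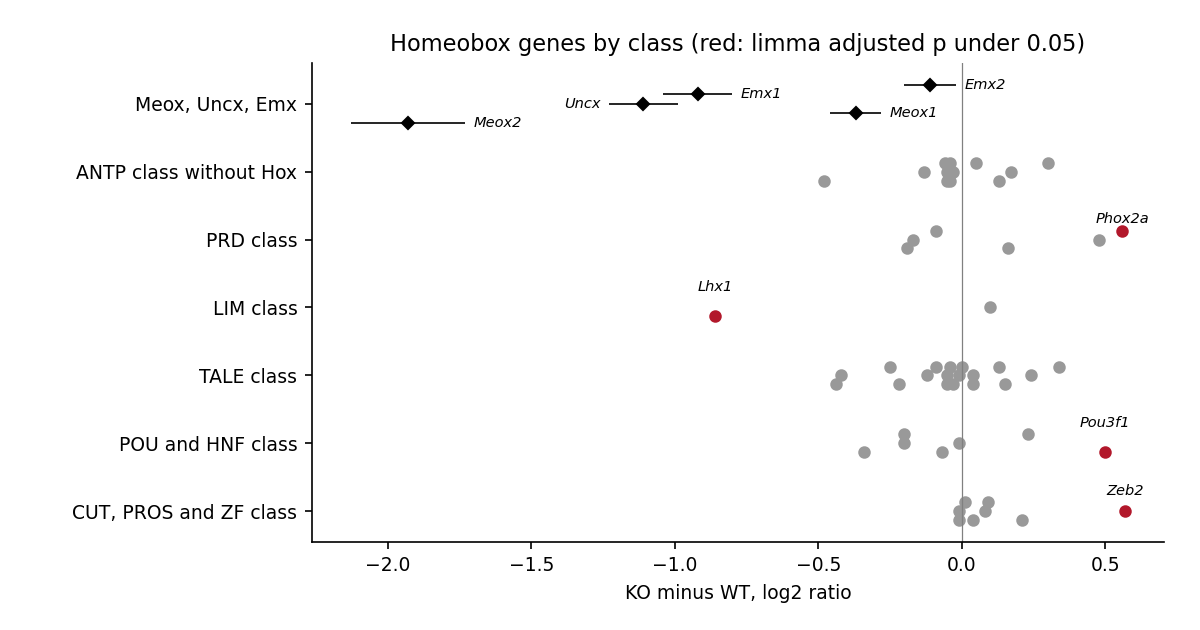
KO minus WT difference in log2 ratio (x axis) of the 5 genes (black diamonds, bars of 1 SE) and of each other tested homeobox gene by class (dots), with red for those that passed in limma. Meox2, Uncx and Emx1 lie at -1.93, -1.11 and -0.92, and of the other homeobox genes Lhx1 has the lowest, at -0.86, followed by En2 at -0.48.

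Genes that work with Meox and Uncx in somites were next. Of 16 listed, 9 were tested, 2 were lower and 0 higher in KO kidneys, where 0.543% of all genes were lower and 1.57% higher. Ripply2, a repressor that sets somite borders, was not well above background on any KO array and was on all 4 WT arrays. It thus passed the filter only through the group where it is high. Its p and its place among the 2 are therefore given as a description. Its log2 ratio was -0.56, -0.59, -0.72 and -0.72 in KO1 to KO4 and 0.15, -0.24, -0.10 and -0.26 in WT1 to WT4 (-0.54 ± 0.10, limma adjusted p = 0.0202). The size is uncertain, between -2.49 and -0.40 over the alternatives, and no fold is given. Scx, a tendon transcription factor, was at -0.42, -0.48, -0.47 and -0.27 in KO1 to KO4 and at -0.04, 0.00, 0.01 and 0.01 in WT1 to WT4 (-0.41 ± 0.08, limma adjusted p = 0.0232). Neither Ripply2 nor Scx passed without KO2, or with sex as a term, where 140 and 12 of all 13985 genes passed. Foxc1, a forkhead gene of paraxial and renal mesenchyme (0.44, limma adjusted p = 0.0747), Tcf15, which somites need to turn epithelial (-0.20, limma adjusted p = 0.336), and Mesp2, which sets rostral somite identity (-0.01, limma adjusted p = 0.983), did not pass. The muscle regulators Myod1, Myog, Myf5, Myf6 and Pax7 were well above background on 0 of the 8 arrays, Ckm on 1 and Acta1 on 3.

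Emx2 acts in the kidney alongside genes of ureteric bud growth and of the first epithelial steps. Of 17 such genes listed, 16 were tested, 1 was lower (Lhx1) and 0 were higher in KO kidneys, which is 6.25% called against 2.12% of all genes. Pax2, which acts in both bud and mesenchyme, was at -0.17 ± 0.08 (limma adjusted p = 0.353). Wnt4, the signal that starts epithelial conversion, was at -0.06 ± 0.12 (limma adjusted p = 0.88), and Gdnf, the ligand that drives bud branching, at 0.08 ± 0.11 (limma adjusted p = 0.792). Ret, the receptor for that ligand, was at 0.32 ± 0.09 (limma adjusted p = 0.106).

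The 5 genes lie on chromosomes 12 (Meox2), 11 (Meox1), 5 (Uncx), 6 (Emx1) and 19 (Emx2), so none is a neighbour of another. Of the 50 genes nearest to them, 5 on each side in the RefSeq order, 36 were tested and 0 passed in limma (7 at an unadjusted p under 0.05, which 14.5% of all genes reached). Arl4a, which lies 4 genes from Meox2, was at 0.35 ± 0.09 (limma adjusted p = 0.0584), and Arl4d, 3 genes from Meox1, at 0.41 ± 0.11 (limma adjusted p = 0.0869). Etv1, 3 genes from Meox2, was at -0.32 ± 0.09 (limma adjusted p = 0.103), and it passed without WT1 at -0.39 (limma adjusted p = 0.0356). Arl4d passed with the replicate number as a block (limma adjusted p = 0.0359). Emx2os, the antisense transcript beside Emx2, was at -0.12 ± 0.09 (limma adjusted p = 0.605), close to the value of Emx2 itself.

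Markers of renal cell types were measured on the same arrays, and their counts stand beside 0.543% of all genes lower and 1.57% higher in KO kidneys. Of 12 nephron progenitor markers, 6 were lower and 0 higher in KO kidneys, and their mean log2 ratio was between -0.48 and -0.37 on the KO arrays and between -0.11 and 0.14 on the WT arrays. All 12 were well above background on all 8 arrays. Cited1 had the largest difference of the 12 (-2.72 ± 0.10), so it weighs most in these means. Cited1, a coregulator of the earliest progenitors, was at -2.68, -2.50, -2.76 and -2.56 in KO1 to KO4, against -0.06, 0.14, 0.02 and 0.29 in WT1 to WT4. WT2 and WT4 were thus the higher WT arrays for Cited1, as for Meox2 and Uncx. Six2 itself was at -0.34, -0.25, -0.30 and 0.05 in KO1 to KO4 and at -0.26, 0.07, 0.01 and 0.19 in WT1 to WT4, with overlap (-0.21 ± 0.12, limma adjusted p = 0.439). The others that did not pass were Crym (0.23 ± 0.11), Eya1 (0.21 ± 0.16), Gdnf (0.08 ± 0.11), Osr1 (-0.06 ± 0.12) and Sall1 (-0.09 ± 0.11).

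Of 9 stromal markers 5 were higher and 0 lower in KO kidneys (mean log2 ratio 0.27 to 0.45 in KO and -0.14 to -0.03 in WT), among them Pdgfra at 0.73 ± 0.11 (limma adjusted p = 0.00763). Of the 4 macrophage markers tested 3 were higher (0.26 to 0.42 in KO and -0.23 to 0.02 in WT). Of 7 endothelial markers 1 was higher, Sox17 (0.43 ± 0.10, limma adjusted p = 0.0462), with mean log2 ratios of -0.24 to 0.14 in KO and -0.33 to -0.05 in WT. Esam set the low ends, at -2.36 on KO2 and -2.62 on WT2, and without it the means were -0.08 to 0.14 in KO and -0.14 to 0.05 in WT. None of 7 smooth muscle markers passed (0 at an unadjusted p under 0.05), with mean log2 ratios of -0.17 to 0.39 in KO and -0.16 to 0.13 in WT. Of 6 markers of the loop and distal tubule 1 was lower, Sim2 (-0.73 ± 0.14, limma adjusted p = 0.019), with mean log2 ratios of -0.53 to -0.33 in KO and -0.38 to -0.07 in WT. In this list Slc12a3, the distal tubule sodium chloride cotransporter, was at -0.88 ± 0.22 (limma adjusted p = 0.0589) and Umod, the uromodulin gene of the thick ascending limb, at 0.75 ± 0.20 (limma adjusted p = 0.0887). None of 9 ureteric bud markers (5 at an unadjusted p under 0.05) or 5 podocyte markers (0) passed. The part of these cell types in the lower levels of Meox2, Uncx and Emx1 was not tested.

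The genes whose log2 ratios lay closest to those of each gene, by the root mean square difference over the 8 arrays, were as follows. For Meox2 they were Traf1 (0.33), Hes5 (0.38) and Phf19 (0.51), a signalling adaptor, a Notch target and a Polycomb-associated factor. Those of Uncx were Ajap1 (0.15), Tph1 (0.17) and Osr2 (0.18), and those of Emx1 were Tph1 (0.22), Shd (0.22) and Fgf8 (0.23), a growth factor of the forming nephron. Tph1 was the only gene named for more than 1 of the 5. Meox1 was closest to Frzb (0.08), 2610028E06Rik (0.09) and Myc (0.09), and Emx2 to Gm6524, Slamf9 and Lnx1 (0.06 each). The likeness of a pair of genes is a description over arrays that share the WT1 RNA. It takes in the difference between KO and WT on which the 5 genes were chosen. For the genes closest to Meox2 that difference was -1.52 (Traf1), -1.42 (Hes5) and -1.13 (Phf19). Shared regulation was not tested.

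**Figure D5:**
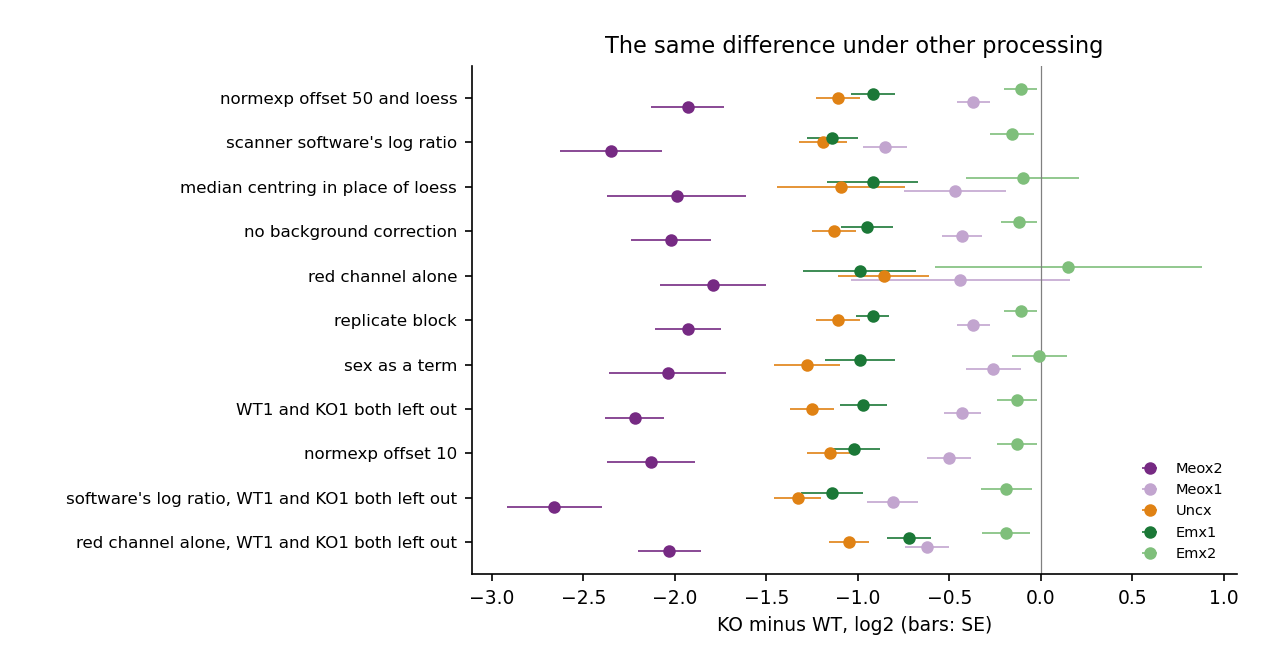
KO minus WT difference in log2 ratio (x axis, bars of 1 SE) of the 5 genes under each way of processing the arrays (rows). The points of Meox2, Uncx, Emx1 and Meox1 stay below 0 in every row, though the bar of Meox1 crosses 0 with the red channel alone. Emx2 lies between -0.19 and 0.15.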

How the data were processed

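Total RNA of 8 kidney pairs (4 KO, 4 WT, grouped and numbered from the labels) was amplified, labelled and hybridized to 2-colour Agilent arrays, per the labels' protocols. Spots were read by Agilent Feature Extraction 10.7.3.1 according to the submitters' processing notes. Median spot intensity and local background of both colours, deposited on a linear scale without normalization per the file headers, were the starting point. The deposited log10 ratio is red over green after the software's background subtraction and dye normalization. The series' value table held the same log10 ratios (all spots within 1% on every array). Per the file headers, flags of 0 or 1, entered here as a score, mark spots above background, saturated or outlying.

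In R 4.3.3 with limma 3.58.1, median signals were background-corrected (normexp, offset 50) and loess-normalized within arrays, with control spots at weight 0. Outlying readings were left out (1765, or 0.372%), and 0 spots were saturated. Of 55681 probes, 27509 of the 29150 with a RefSeq accession were named through RefSeq (GRCm38.p6, another build than that of the files, used for names and gene order). A probe was kept if the red channel was well above background on at least 4 arrays, and the brightest kept probe on average was used per gene. KO and WT were compared with lmFit and eBayes over 13985 genes with Benjamini-Hochberg adjustment at 0.05, which called 296 (220 higher, 76 lower), or 556 when the replicate number entered as a block. This fit was tested on simulated data. Precision is limited by the number of arrays. The design text calls the samples biological replicates but does not say whether they shared litters.

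Named genes were the 5 genes, up to 6 genes per list or set of neighbours that passed with the smallest p (up to 2 where none did), the 3 genes closest to each of the 5, and Ddx3y. Dot1l, Six2, Crym, Eya1, Osr1, Sall1, Pax2, Wnt4, Gdnf, Foxc1, Tcf15, Mesp2, Esam, Slc12a3 and Umod were added after their values were seen. The members and lists were chosen with earlier results of these data known. Residuals of same-numbered KO and WT arrays correlated at 0.14, 0.37, 0.26 and 0.30 over genes for numbers 1 to 4, all over 0.1. The numbers were therefore entered as a block in an alternative, while the main fit takes the arrays as unpaired. Other combinations ranged from -0.56 to 0.37. KO1 with WT4 (0.37) and KO3 with WT2 (0.31) exceeded the same-numbered values of KO1 and KO3. The residuals thus do not settle whether the numbers mark pairs. The numbers also coincide with the slide columns, per the file headers. The alternatives were other normalizations, background corrections and filters, the red channel alone, the mean of all probes of a gene, the replicate block, sex as a term, each array left out, and KO1 and WT1 left out. A single channel, red or green, was quantile-normalized between arrays after background correction. Offset 10, and the software's ratio or the red channel without KO1 and WT1, and the endothelial mean without Esam, were chosen after seeing the data.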

Additional observations from a re-analysis of the deposited data

Results flagged for a closer look

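Of 98 groups of 4 arrays checked for 1 array standing apart from the other 3, 5 had one, where chance alone gives about 1 in 20. None was a group of Meox1, Meox2, Uncx, Emx1, Emx2 or the paralog differences. Lhx1 was lower on KO4 (-0.85) than on the other KO arrays (-0.47 to -0.40), and higher on WT2 (0.78) than on the other WT arrays (0.12 to 0.23). Etv1 was lower on WT1 (-0.27) than on the other WT arrays (0.00 to 0.03). 3110082I17Rik, which lies 5 genes from Uncx, was higher on WT2 (0.40) than on the others of its group (0.03 to 0.09). Tmem184a, 4 genes from Uncx, was lower on WT1 (-0.30) than on the others of its group (0.02 to 0.05).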

How the results depend on the processing

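The direction of Meox2, Uncx, Emx1 and Meox1 held under all 20 alternatives. For Meox1 the SE was large with the red channel alone (-0.44, SE 0.6) and with median centring (-0.47, SE 0.28). Some of the alternatives could not move the difference. With 4 arrays in each group, the replicate block leaves it as it was by construction (-1.93 for Meox2). With 1 probe per gene, already kept, neither lifting the filter nor the mean of all probes could change it. Without 1 array at a time, the differences were -2.12 to -1.77 for Meox2, -1.18 to -1.04 for Uncx, -0.99 to -0.81 for Emx1, -0.43 to -0.32 for Meox1 and -0.17 to -0.06 for Emx2. The software's log ratio gave -2.35 for Meox2, -1.14 for Emx1 and -0.85 for Meox1, and without KO1 and WT1 it gave -2.66, -1.14 and -0.81, and -1.33 for Uncx. Offset 10 gave -0.50 for Meox1. The red channel alone gave -0.86 for Uncx, a reversed 0.15 (SE 0.73) for Emx2 and 1.14 for Emx2 minus Emx1. Without KO1 and WT1 it gave -0.72 for Emx1, -0.62 for Meox1 and 0.53 for Emx2 minus Emx1. Meox2 minus Meox1 stayed between -1.85 and -1.35. The cause of these shifts was not tested.

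Counts of called genes moved more. The count over all genes, 296, became 123 with the software's ratio (65 without KO1 and WT1), 0 with median centring (178 at an unadjusted p under 0.05), 1 with the red channel (145 without KO1 and WT1), 556 with the replicate block, 12 with sex as a term and 83 (without KO4) to 345 (without KO1) with 1 array left out. It was 187 without WT1, 150 without WT2, 129 without WT4 and 140 without KO2. Of the 4 homeobox genes, 1 passed with the software's ratio, with sex as a term, and with the software's ratio or the red channel without KO1 and WT1. With 1 array left out 0 to 4 homeobox genes passed: 2 without WT1, WT2 or KO2, and 0 without KO4. Of the 2 somite genes, 1 passed without background correction, without KO1 and WT1, and with the software's ratio, and with 1 array left out 0 to 2 did. With sex as a term 0 somite genes passed. For the genes around Emx2 function the count of 1 became 0 with the software's ratio or the red channel without KO1 and WT1, and 0 to 1 with 1 array left out. With median centring or the red channel alone, 0 genes of the homeobox, somite and Emx2 lists passed. Among neighbours 1 passed with the replicate block (Arl4d) and without KO1 and WT1 (Etv1), and 0 to 1 with 1 array left out.

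Signal over background limits Meox1 and Emx2, which were not well above background on KO1 and WT1 (Meox1) or on WT1 (Emx2). With 4 of 4 KO kidneys male and 1 of 4 WT kidneys male, sex is nearly the same split as genotype.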
